A study of Mus musculus with 12 samples.

Results

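The genes described here are 10 imprinted genes with roles in growth that lie outside the Dlk1 region: Igf2, H19, Cdkn1c, Igf2r, Grb10, Peg3, Mest, Plagl1, Ndn and Zim1. They were taken from the deposited count table by gene symbol, each symbol being equal to a name on that list, and they are 10 of the 36186 genes in the table. All 10 were found and all 10 passed the filter on low counts in every comparison. The libraries come from whole mouse kidneys at E18.5, with 12 libraries in 4 genotypes of 3 embryos each. Wild-type embryos are numbered 30, 37 and 55. AkCh embryos 20, 31 and 33 are Hoxa9,10,11-/- HoxC9,10,11+/-, AhCk embryos 38, 110 and AhCk_115 are Hoxa9,10,11+/- HoxC9,10,11-/-, and AkCk embryos 24, 27 and 29 are labelled Hoxa9,10,11-/- HoxC9,10,11-/-. Every embryo is of a mixed 129/CD1 background. The mutant alleles are small deletions that shift the reading frame in the first exon of each targeted gene.

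An imprinted gene is transcribed mainly from the copy inherited from the mother or mainly from that inherited from the father, according to DNA methylation laid down in the egg or the sperm. Many such genes set the size of the fetus: paternally expressed Igf2, Peg3, Mest and Plagl1 tend to favour growth, while maternally expressed Igf2r, Cdkn1c, H19 and Grb10 tend to hold it back. In the developing kidney, Igf2 is abundant in mesenchyme and Cdkn1c is known for its part in podocytes and in the growth of the medulla.

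Some properties of the libraries bear on every value that follows. Summed counts ran from 28616877 in AkCh embryo 20 to 47067903 in AhCk embryo 110, with a median of 39328488. AkCh embryo 20 stood apart from all other libraries: 15.6% of 16260 genes lay more than 2-fold from the median library, against 1.82% to 5.93% in the others. Its departure from the median library also went with exon length, with a Spearman correlation of -0.349 across 15337 genes, where genes are not independent replicates; the other libraries ran from -0.221 to 0.274. Comparisons and correlations that use the AkCh group are therefore given with and without embryo 20. Every AhCk library was sequenced in run1646 and every other library in run1008, so the AhCk genotype and the run cannot be told apart. The embryos also differ in sex. All wild-type embryos, AkCh embryo 20, AhCk embryos 38 and AhCk_115 and AkCk embryo 24 had Y-linked transcripts, with summed counts of 4080 to 8558. AkCh embryos 31 and 33, AhCk embryo 110 and AkCk embryos 27 and 29 had Xist counts of 2187 to 16418 and Y-linked sums of at most 12.

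The targeted genes were read first. Hoxa10 had the highest level in CPM (counts scaled to a library of 1e+06, with TMM factors) of 9 genes of paralog groups 9, 10 and 11 (clusters A, C and D). It stood at 125, 152 and 165 CPM in the wild-type embryos and 100.3, 104 and 112 CPM in the AkCk embryos. Here and in the lists below, abundance is ranked by CPM, not corrected for exon length. Hoxc10 stood at 50.2, 58.8 and 66.9 CPM in wild type and at 37.8, 29.1 and 35.8 CPM in AkCk. AkCh embryo 20 had 153 CPM of Hoxa10 and 120.7 CPM of Hoxc10; the other AkCh and AhCk libraries had 103 to 114 CPM and 32.1 to 51.6 CPM. Both were lower in AkCk than in wild type, by -0.49 for Hoxa10 and -0.78 for Hoxc10 on the log2 scale (edgeR quasi-likelihood test, adjusted p 0.0270 and 0.0127), and the other 7 were not past the threshold in any comparison. Of the 6 fits that leave out 1 library, the difference was past the threshold in 2 for Hoxa10 and in 5 for Hoxc10. Among all 15839 genes tested in AkCk against wild type, 7.40% were lower. Transcripts of genes with small frame-shifting deletions need not be lost, so these levels do not test the labels. Hoxa11 ran from 44.2 to 59.7 CPM in wild type, from 43.2 to 52.2 CPM in AkCh, from 52.8 to 61.5 CPM in AhCk and from 37.1 to 52.9 CPM in AkCk. Over the 12 libraries Hoxa9 ran from 23.96 to 40.8 CPM, Hoxc9 from 9.16 to 32.7 CPM and Hoxc11 from 0.892 to 2.94 CPM. The labels give AkCk as lacking Hoxa11 function altogether, whereas the accompanying paper gives the double mutants used for sequencing as Hoxa9,10-/- Hoxa11+/- or Hoxa9,10-/- Hoxa11+/+, each with HoxC9,10,11-/-, so with 1 or 2 normal Hoxa11 copies. The supplement of that paper splits the sequenced mutants into sets of 2 and 1 but prints Hoxa11+/- for both. Which AkCk embryo carries which Hoxa11 allele is not given.

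The 10 genes lie in 7 places on 5 chromosomes of the mm10 build (GRCm38). Igf2 (Entrez 16002, chromosome 7, 142650768 to 142666816, minus strand) and H19 (14955, chromosome 7, 142575530 to 142578146, minus strand) are 72621 bases apart. Cdkn1c (12577, chromosome 7, 143458339 to 143461059, minus strand) is 791522 bases from Igf2. Zim1 (22776, chromosome 7, 6674444 to 6696540, minus strand) and Peg3 (18616, chromosome 7, 6703892 to 6730462, minus strand) are 7351 bases apart at the other end of that chromosome. Ndn (17984) is at 62348277 to 62349928 on the plus strand of chromosome 7. Mest (17294) is at 30733506 to 30748466 on the plus strand of chromosome 6, and Plagl1 (22634) at 13090832 to 13131694 on the plus strand of chromosome 10. Grb10 (14783) is at 11930499 to 12037428 on the minus strand of chromosome 11, and Igf2r (16004) at 12682406 to 12769706 on the minus strand of chromosome 17. Some are overlapped by other annotated genes, and the counting is not stated to use strand, so reads of overlapping genes cannot be told apart. The overlapping genes were low: Igf2os averaged 9.81 CPM beside 1742 CPM for Igf2, and Airn averaged 3.79 CPM beside 259.9 CPM for Igf2r. Copg2 averaged 56.1 CPM, and a second entry of that symbol 39.6 CPM, beside 1404 CPM for Mest.

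Levels can be compared between genes only per length of exon. On that scale H19, a long non-coding RNA, was the highest of the 10 in wild type, at 1109 CPM per kb and rank 9 of 30964 genes with a known length. Cdkn1c followed at 347 CPM per kb (rank 91), Mest at 339 (rank 95) and Igf2 at 254 (rank 143). Cdkn1c and Mest do not differ beyond their spread, since their wild-type values vary by more than the gap between them. Grb10 stood at 80.9 CPM per kb, Plagl1 at 28.2, Ndn at 25.6, Igf2r at 25.2 and Peg3 at 18.1; among these, Plagl1, Ndn and Igf2r do not differ beyond their spread. Zim1 was the lowest, at 1.45 CPM per kb and rank 11292. Together the 10 genes took 0.740% to 0.833% of all counts in the wild-type libraries and 0.916% to 0.954% in the AkCk libraries, which do not overlap. AhCk libraries ran from 0.753% to 0.955%, across both, and AkCh libraries from 0.702% to 0.903%, below AkCk.

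**Figure D1:**
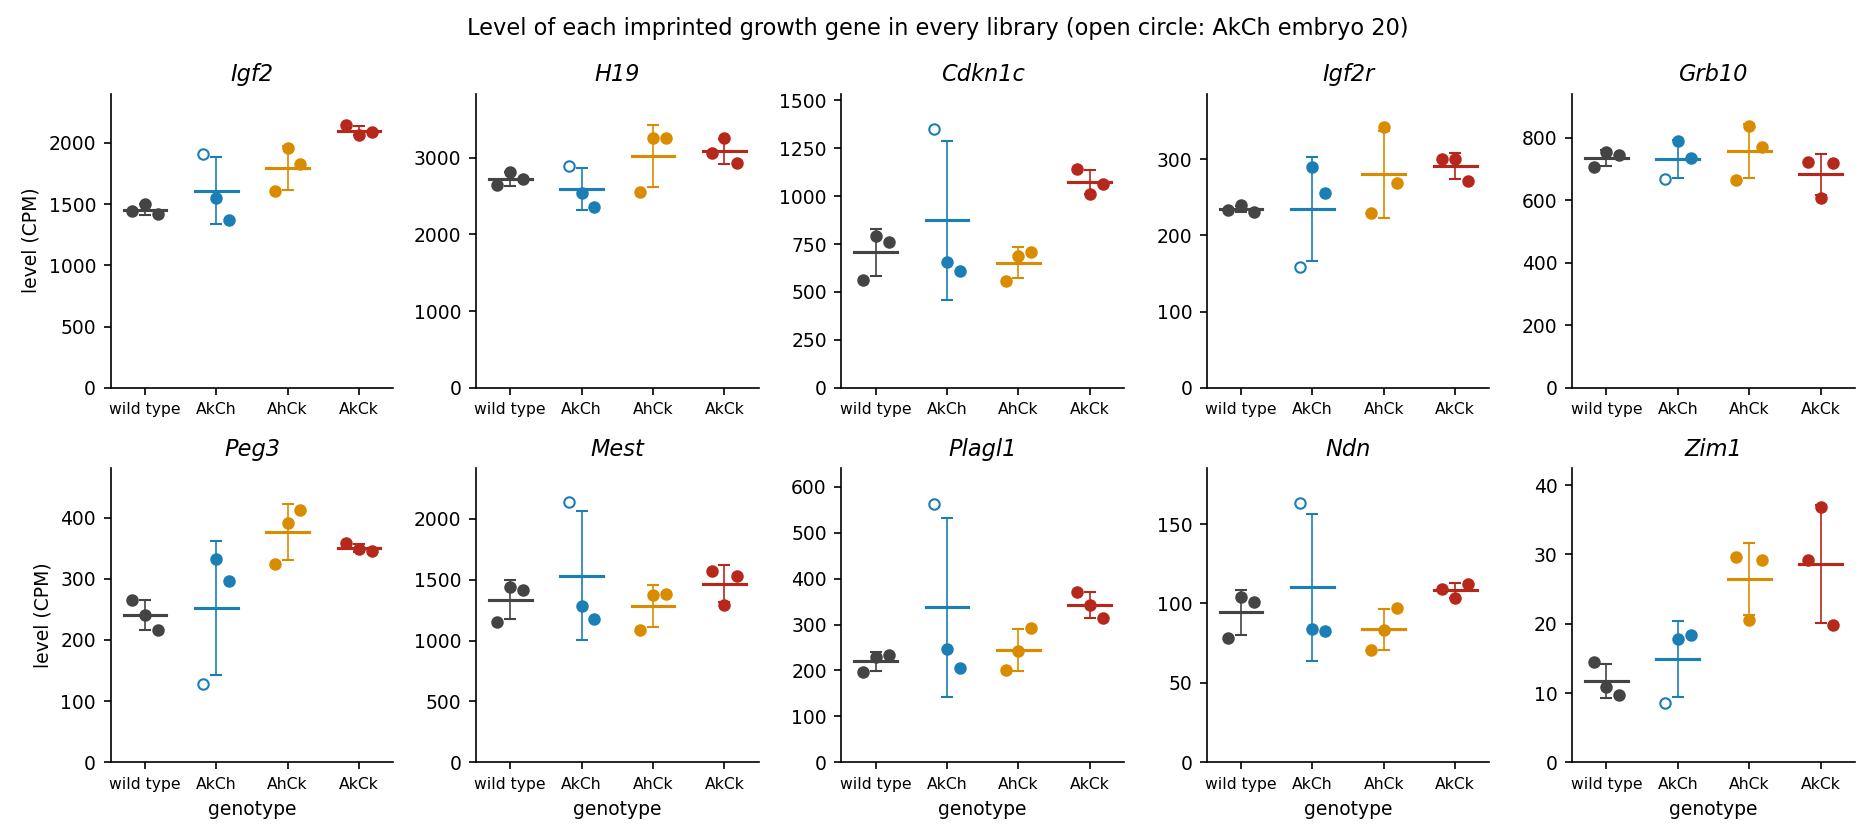
Level of each of the 10 genes in CPM (vertical axis, from 0) in the 3 libraries of each genotype; bars show the mean and error bars 1 SD. AkCk libraries lie above all wild-type libraries for Igf2, H19, Cdkn1c, Igf2r, Peg3, Plagl1 and Zim1, and AkCh embryo 20 (open circle) lies far from the other AkCh libraries for most genes.

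Promoter windows of 300 bases, from 250 before to 50 after a start site, were read from RefSeq on GRCm38.p6, which held 14 windows for 8 of the genes; H19 and Cdkn1c had no entry. The windows had 2 to 45 CpG dinucleotides with a median of 15.5, against a median of 7.0 over all 32851 windows. They were searched on both strands for 3 short motifs: TGCCGC, letters recognised by the imprint-keeping protein ZFP57; GGGGCCCC, letters bound by PLAGL1, which is itself 1 of the 10; and TTTATGG, letters bound by posterior Hox proteins. The first is held by 11.6% of all windows and by 6 of the 14, which belong to 5 genes (Igf2, Grb10, Mest, Plagl1 and Zim1). Of these 6, the 2 of Mest (chr6:30737800-30738099 and chr6:30737803-30738102) overlap almost fully and share the same motif sites. The second motif is held by 1.08% of all windows and by the Peg3 window alone among the 14, and the third by 2.75% and by a single Igf2 window. A match describes the letters only. The windows below are those of genes that differed between genotypes and held a motif; capitals mark the motif letters on the printed strand, where GCGGCA is TGCCGC read on the other strand. The Igf2 window is at chr7:142661222-142661521, 1 of 4 for this gene, and holds TTTATGG and GCGGCA. Peg3 is at chr7:6730370-6730669, Zim1 at chr7:6696383-6696682 (these 3 on the minus strand) and Plagl1 at chr10:13090582-13090881 on the plus strand. Each runs 5′ to 3′ along the gene.
Igf2: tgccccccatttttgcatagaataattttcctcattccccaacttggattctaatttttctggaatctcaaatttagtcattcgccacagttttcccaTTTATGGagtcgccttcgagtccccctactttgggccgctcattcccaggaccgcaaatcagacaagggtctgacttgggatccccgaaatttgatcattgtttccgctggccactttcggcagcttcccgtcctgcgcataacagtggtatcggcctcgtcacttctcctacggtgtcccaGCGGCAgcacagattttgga
Peg3: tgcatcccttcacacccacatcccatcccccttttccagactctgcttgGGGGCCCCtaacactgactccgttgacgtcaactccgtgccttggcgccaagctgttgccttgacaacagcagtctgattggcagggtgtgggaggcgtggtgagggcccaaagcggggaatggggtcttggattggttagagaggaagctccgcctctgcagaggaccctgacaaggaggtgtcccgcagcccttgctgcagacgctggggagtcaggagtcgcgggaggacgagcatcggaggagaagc
Zim1: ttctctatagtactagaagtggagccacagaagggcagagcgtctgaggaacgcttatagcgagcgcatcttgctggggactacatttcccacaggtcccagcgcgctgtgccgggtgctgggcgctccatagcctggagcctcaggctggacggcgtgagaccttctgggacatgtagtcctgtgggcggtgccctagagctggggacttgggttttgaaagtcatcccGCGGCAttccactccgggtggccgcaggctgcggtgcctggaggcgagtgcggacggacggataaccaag
Plagl1: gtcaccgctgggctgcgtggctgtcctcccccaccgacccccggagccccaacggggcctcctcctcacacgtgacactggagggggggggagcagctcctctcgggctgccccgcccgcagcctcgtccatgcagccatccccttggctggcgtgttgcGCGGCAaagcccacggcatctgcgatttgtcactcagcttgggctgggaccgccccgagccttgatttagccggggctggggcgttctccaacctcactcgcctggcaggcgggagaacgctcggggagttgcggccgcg

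Compared with wild type, 6 of the 10 genes were higher and 0 were lower in AkCk (edgeR quasi-likelihood test on the 6 libraries, Benjamini-Hochberg adjusted p under 0.05 over all genes tested). Among all 15839 genes tested, 6.31% were higher and 7.40% lower, 13.7% in all. The median log2 fold change was 0.42 for the 10 genes and -0.01 for all genes. Without a model, 7 of the 10 had every AkCk library above every wild-type library, against 17.3% of all genes, and 0 had every one below, against 20.8%. The count of 6 depends on single libraries: it was 2 without wild-type embryo 37, 3 without wild-type embryo 55, 3 without AkCk embryo 24, 4 without AkCk embryo 27, 5 without AkCk embryo 29 and 6 without wild-type embryo 30. In fits that share 1 spread over more groups it was 2 with all 12 libraries and 0 with the 9 libraries of run1008. Leaving AkCh embryo 20 out of those fits, a choice made after the data were seen, gave 5 with 11 libraries and 6 with 8. With Xist level as a covariate in the 12-library fit, the count was 1 (Igf2, 0.58 on the log2 scale). The 6-library fit differs from this one in libraries as well as covariate. Between the 2, the log2 difference went from 0.31 to 0.08 for Igf2r, from 0.54 to 0.30 for Peg3 and from 1.29 to 1.20 for Zim1. It went from 0.60 to 0.82 for Cdkn1c and from 0.63 to 0.94 for Plagl1. AkCk embryo 24 has Y-linked transcripts, as all wild-type embryos do, and its values for Igf2, Cdkn1c, Igf2r, Peg3, Plagl1 and Zim1 were above those of all 3 wild-type embryos.

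In AkCh against wild type, 0 of the 10 genes passed the threshold in edgeR, as did 0 of 15789 genes (0.0%, higher or lower); 360 genes had an unadjusted p under 0.05 and none of the 10 did. DESeq2 called 18 genes and none of the 10. None of the 10 had groups that did not overlap, against 3.58% of all genes higher and 4.77% lower. Without AkCh embryo 20, 3 genes were higher (0.0188% of 15967) and 5 lower (0.0313%), none of them among the 10. In that fit 1813 of the 15967 genes had an unadjusted p under 0.05, with Igf2r, Peg3 and Zim1 among them. These 3 had both AkCh libraries above all wild-type libraries, against 16.0% of all genes, and 1, H19, had both below, against 16.9%. In AhCk against wild type, 2 of the 10, Peg3 and Zim1, were higher and 0 lower, beside 0.836% and 1.53% of 15902 genes, 2.36% in all. Groups did not overlap for 3 of the 10, which were all higher in AhCk (Igf2, Peg3 and Zim1), against 11.4% of all genes, and 0 were lower, against 15.3%. That count of 2 became 1 without AhCk embryo 38 and 0 without any of wild-type embryos 37 and 55 or AhCk embryos 110 and AhCk_115. The comparisons with wild type share the same 3 control embryos.

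**Figure D2:**
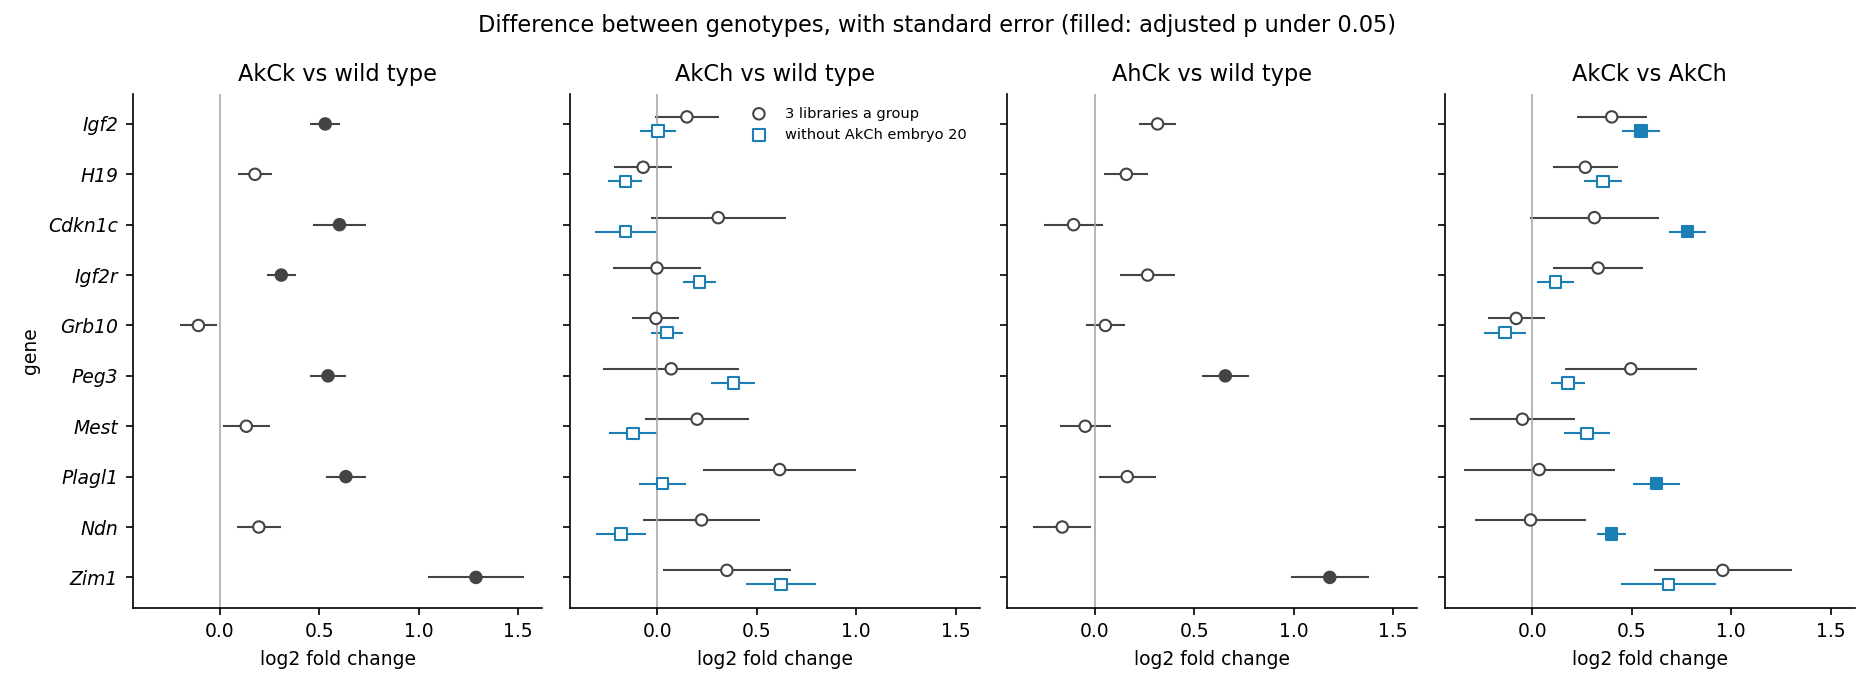
Log2 fold change (horizontal axis) with its standard error for each of the 10 genes in 4 comparisons; filled symbols have an adjusted p under 0.05, and squares are fits without AkCh embryo 20. Filled symbols number 6 for AkCk against wild type and 2 for AhCk against wild type, and 4 for AkCk against AkCh once embryo 20 is left out.

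Igf2 encodes the insulin-like growth factor that drives fetal growth. Its level was 1443, 1503 and 1419 CPM in wild-type embryos 30, 37 and 55 and 2145, 2067 and 2093 CPM in AkCk embryos 24, 27 and 29. AhCk embryos 38, 110 and AhCk_115 had 1605, 1959 and 1831 CPM, and AkCh embryos 20, 31 and 33 had 1912, 1553 and 1369.9 CPM. All AkCk libraries were above all others, all AhCk libraries were above wild type, and the AkCh libraries spread across both. Igf2 rose in AkCk by 0.53 on the log2 scale (SE 0.0764, edgeR adjusted p 0.00711), a call that held in every one of the 6 fits with 1 library removed. The call was lost in the fit of the 9 libraries of run1008. In AhCk the difference was 0.32 (SE 0.0921, edgeR adjusted p 0.120), which DESeq2 placed past the threshold (adjusted p 0.0312). Whether AkCk differs from AhCk was not tested. In whole-kidney RNA, fewer or more cells of a type cannot be told apart from less or more RNA per cell, here and for every gene below.

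H19 is transcribed from the maternal copy next to Igf2, from shared enhancers. It stood at 2642, 2822 and 2722 CPM in wild type and at 3063, 3260.2 and 2933 CPM in AkCk. AkCh libraries had 2891, 2538 and 2357 CPM and AhCk libraries 2551, 3261 and 3262 CPM. AkCk libraries lay above wild type without overlap, but the difference of 0.18 (SE 0.0850, edgeR adjusted p 0.193) was not past the threshold, and the other groups overlapped wild type. The ratio of Igf2 to H19 within a library does not depend on library scaling. Its log2 value averaged -0.91 in wild type (SD 0.0340), -0.70 in AkCh (SD 0.0936; -0.60 in embryo 20, -0.71 and -0.78 in its group mates), -0.75 in AhCk (SD 0.0826) and -0.55 in AkCk (SD 0.0919). Each mutant library had a higher ratio than each wild-type library. The AkCk mean exceeded wild type by 0.35, with an exact permutation p of 0.1 (two-sided, 20 orderings), which is the smallest p that 3 against 3 embryos allow.

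**Figure D3:**
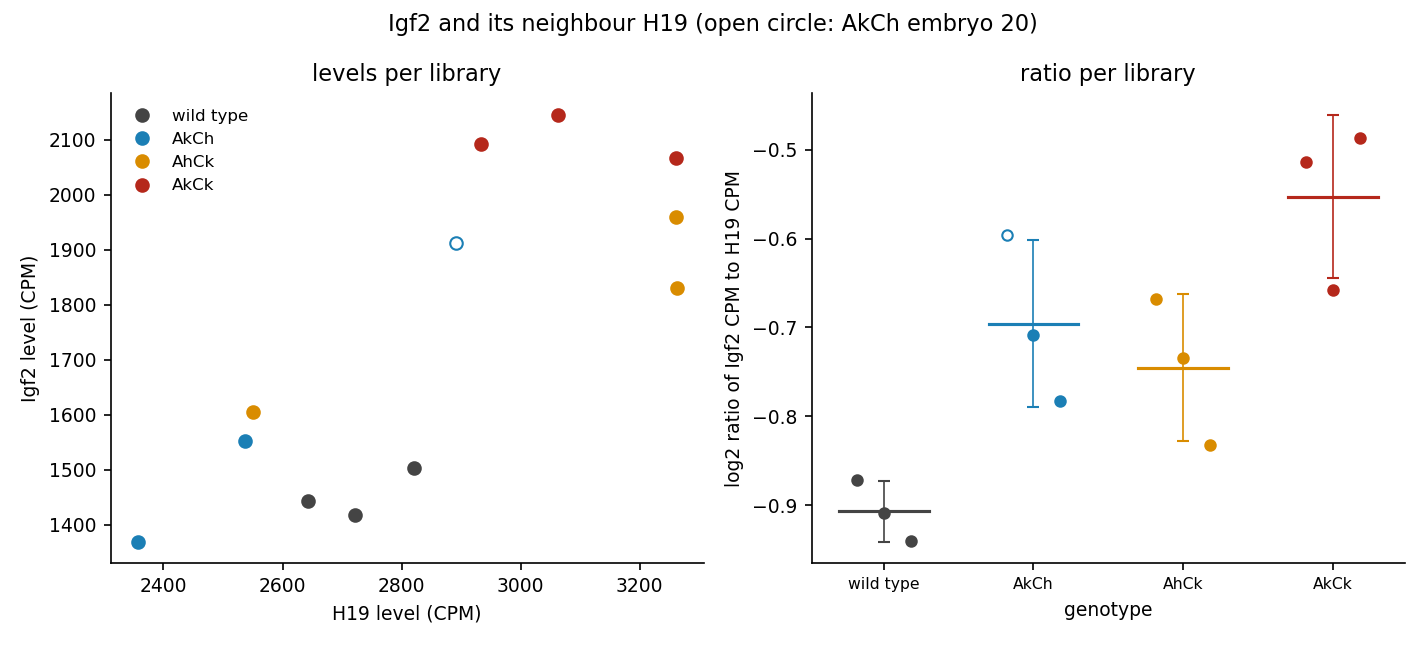
Left, Igf2 level against H19 level, both in CPM, for the 12 libraries; right, log2 of the ratio of Igf2 to H19 in each library, with the mean and 1 SD of each genotype. Wild-type ratios lie from -0.94 to -0.87 and all mutant ratios are higher, from -0.83 to -0.49.

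Igf2r encodes the receptor that takes IGF2 into the cell for breakdown, and Grb10 an adaptor that dampens signalling from insulin and IGF1 receptors. Igf2r stood at 234, 239 and 231 CPM in wild type and at 300.3, 301 and 271 CPM in AkCk. AkCh libraries had 158, 289 and 255 CPM, with embryo 20 the lowest of all 12, and AhCk libraries had 229, 342 and 269 CPM. Igf2r rose in AkCk by 0.31 (SE 0.0737, edgeR adjusted p 0.0339), without overlap with wild type. This call rests on single libraries: it held only without wild-type embryo 30 (adjusted p 0.0348) and without AkCk embryo 29 (0.0415) among the 6 edgeR fits that leave out 1. It was also lost with library size alone as scaling, with limma on the deposited log2 values, and in fits of 12, 9 or 11 libraries. With Xist as a covariate the difference was 0.08 (edgeR adjusted p 0.827). Grb10 ranged from 707 to 755 CPM in wild type and from 607 to 721 CPM in AkCk. AkCh libraries had 669 to 789 CPM and AhCk libraries 665 to 837 CPM. With all 12 libraries its groups overlapped in every comparison, and its log2 difference in AkCk was -0.11 (SE 0.0923, edgeR adjusted p 0.442).

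Cdkn1c encodes p57, an inhibitor of cyclin-dependent kinases. Wild-type embryos had 565, 794 and 763 CPM and AkCk embryos 1141, 1014 and 1065 CPM. AhCk embryos had 559, 688 and 709 CPM, and AkCh embryos 1352, 658 and 610.3 CPM. AkCk was above wild type and AhCk without overlap, AhCk overlapped wild type, and AkCh embryo 20 was the highest library while its group mates lay within the wild-type range. Cdkn1c rose in AkCk by 0.60 (SE 0.135, edgeR adjusted p 0.0282). The call held in 1 of the 6 edgeR fits that leave out 1 library, without wild-type embryo 30 (adjusted p 0.0154); in the others the adjusted p ran up to 0.0907, without AkCk embryo 24. DESeq2 called it as well, and limma on the deposited log2 values did not.

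Plagl1 encodes a zinc finger protein that regulates other imprinted genes, among them Igf2, H19 and Cdkn1c. It stood at 197, 230.3 and 234 CPM in wild type and at 370.2, 342 and 315 CPM in AkCk. AhCk embryos had 200.1, 243 and 292 CPM and AkCh embryos 561, 246 and 205 CPM. AkCk lay above wild type and AhCk, and only AkCh embryo 20 exceeded it. Plagl1 rose in AkCk by 0.63 (SE 0.0991, edgeR adjusted p 0.00907), a call that held in all 6 fits that leave out 1 library. The call was lost with all 12 libraries, with the 9 libraries of run1008 and with Xist as a covariate. Mest, which encodes an enzyme of the alpha/beta hydrolase fold, ranged from 1156 to 1439 CPM in wild type and from 1294 to 1575 CPM in AkCk, with overlap. AkCh embryos had 2139, 1286 and 1174 CPM and AhCk embryos 1087, 1376 and 1386 CPM, so that embryo 20 was again apart. Ndn, which encodes the MAGE-family protein necdin, ranged from 78.2 to 104 CPM in wild type and from 103 to 112 CPM in AkCk, also with overlap. It stood at 163, 84.0 and 82.9 CPM in AkCh and at 70.7, 83.3 and 97.0 CPM in AhCk. Their log2 differences in AkCk were 0.13 for Mest (SE 0.119, edgeR adjusted p 0.467) and 0.20 for Ndn (SE 0.112, 0.261).

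Peg3 and Zim1 are neighbouring genes for zinc finger proteins, Peg3 expressed from the paternal and Zim1 from the maternal copy. Peg3 stood at 265, 241 and 216 CPM in wild type, 325, 392 and 413 CPM in AhCk, and 358, 349 and 345 CPM in AkCk. AkCh embryo 20 had 128 CPM, the lowest of the 12, while AkCh embryos 31 and 33 had 332 and 297 CPM. Apart from embryo 20, every mutant library was above every wild-type library. Zim1 was also above wild type in AhCk and AkCk, at a much lower level, with 14.5, 10.9 and 9.78 CPM in wild type, 29.6, 20.5 and 29.2 CPM in AhCk, and 29.3, 36.8 and 19.8 CPM in AkCk. AkCh embryo 20 was again the lowest, at 8.54 CPM, and AkCh embryos 31 and 33 had 17.8 and 18.4 CPM, above wild type. In AkCk, Peg3 rose by 0.54 (SE 0.0899, edgeR adjusted p 0.0107) and Zim1 by 1.29 (SE 0.241, 0.0168). In AhCk, Peg3 rose by 0.66 (SE 0.118, edgeR adjusted p 0.0421) and Zim1 by 1.18 (SE 0.197, 0.0339). The AkCk call for Peg3 held in 5 of the 6 fits that leave out 1 library, failing without wild-type embryo 37 (edgeR adjusted p 0.0519), and that for Zim1 in 3 of 6, failing without wild-type embryos 37 (0.0702) and 55 (0.0691) and AkCk embryo 24 (0.0546). With Xist as a covariate the AkCk difference was 0.30 for Peg3 (edgeR adjusted p 0.570) and 1.20 for Zim1 (0.0787). The AhCk calls held in 2 of 6 for Peg3 and 1 of 6 for Zim1, with edgeR adjusted p up to 0.200 for Peg3 and 0.181 for Zim1, both without wild-type embryo 37. In AkCh without embryo 20 the differences from wild type were 0.38 for Peg3 (edgeR adjusted p 0.431) and 0.62 for Zim1 (0.431).

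The direct test of AkCk against AkCh within run1008 gave 0 of the 10 genes in edgeR, beside 0 of 15764 genes (0.0%, higher or lower); 1787 genes and 1 of the 10 (Zim1) had an unadjusted p under 0.05, and DESeq2 called 487 genes and none of the 10. Every AkCk library was above every AkCh library for 4 of the 10 (Igf2, H19, Peg3 and Zim1), against 9.95% of all genes, and below for 0, against 13.1%. AkCh embryo 20 decides this comparison. Without it, 4 of the 10 were higher in AkCk and 0 lower, beside 2.43% higher and 1.86% lower of 15986 genes. These were Igf2 by 0.55 (edgeR adjusted p 0.0331), Cdkn1c by 0.78 (0.0168), Plagl1 by 0.62 (0.0371) and Ndn by 0.40 (0.0352). The Ndn call was lost in the 2 other edgeR fits without embryo 20, with 11 libraries (adjusted p 0.133) and with 8 (0.0989), which kept the other 3. Between these 5 libraries, 8 of the 10 had both AkCh libraries below every AkCk library, against 19.6% of all genes, and 1, Grb10, had them above, against 24.8%. Among the other genes listed below, the fit of these 5 libraries had 2 IGF pathway genes, 2 cluster neighbours, 2 other imprinted genes and 3 genes of the Dlk1 region higher, and 2 other imprinted genes, 1 imprint-keeping gene and 1 cell-cycle gene lower. Peg3 and Zim1 were not past the threshold in it, at 0.18 (edgeR adjusted p 0.259) and 0.68 (0.153).

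Whether the genes vary with each other between embryos was measured on log2 CPM after subtracting each genotype's mean, over 12 libraries and all 45 pairs, with an exact permutation test over all orderings within genotype (smallest possible p 0.000772) and Benjamini-Hochberg adjustment over the 45. Pairs past the threshold numbered 4, all positive, among Cdkn1c, Mest, Ndn and Plagl1. Cdkn1c and Mest had r 0.975 (permutation p 0.000772, adjusted 0.0347) and Spearman rho 0.937 (p 0.000772). Cdkn1c and Ndn had r 0.982 (permutation p 0.00386, adjusted 0.0434) and rho 0.972 (p 0.00386). Cdkn1c and Plagl1 had r 0.958 (permutation p 0.00309, adjusted 0.0434) and rho 0.937 (p 0.00540), and Mest and Ndn r 0.960 (p 0.00231, adjusted 0.0434) and rho 0.909 (p 0.00231). For all 4 pairs the 2 libraries farthest from the median were AkCh embryos 20 and 33. Removing them leaves 1 AkCh library, which has no departure from its own mean, so 9 libraries without AkCh remain, over which r was 0.925, 0.933, 0.807 and 0.880, in the order just given. Without AkCh embryo 20 alone r was 0.926, 0.925, 0.798 and 0.866, and the permutation p 0.00231, 0.0116, 0.00926 and 0.00694, each adjusted to 0.0868. With 11 libraries only 432 orderings exist and the smallest possible p is 0.00231. Within run1008, 9 libraries gave r of 0.979, 0.992, 0.963 and 0.970 (permutation p 0.00463, 0.0231, 0.0185 and 0.0139, each adjusted to 0.156) and the 8 without embryo 20 gave 0.897, 0.953, 0.769 and 0.854. The other run, run1646, holds 3 libraries of a single genotype, too few for a value. Leaving out any 1 library of wild type, AkCh or AhCk left 0 pairs past the threshold, and leaving out 1 of AkCk left 3, 7 or 6. With 432 orderings a lone pair cannot pass once adjusted over the 45, so a count of 0 does not show that the pairs fail.

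**Figure D4:**
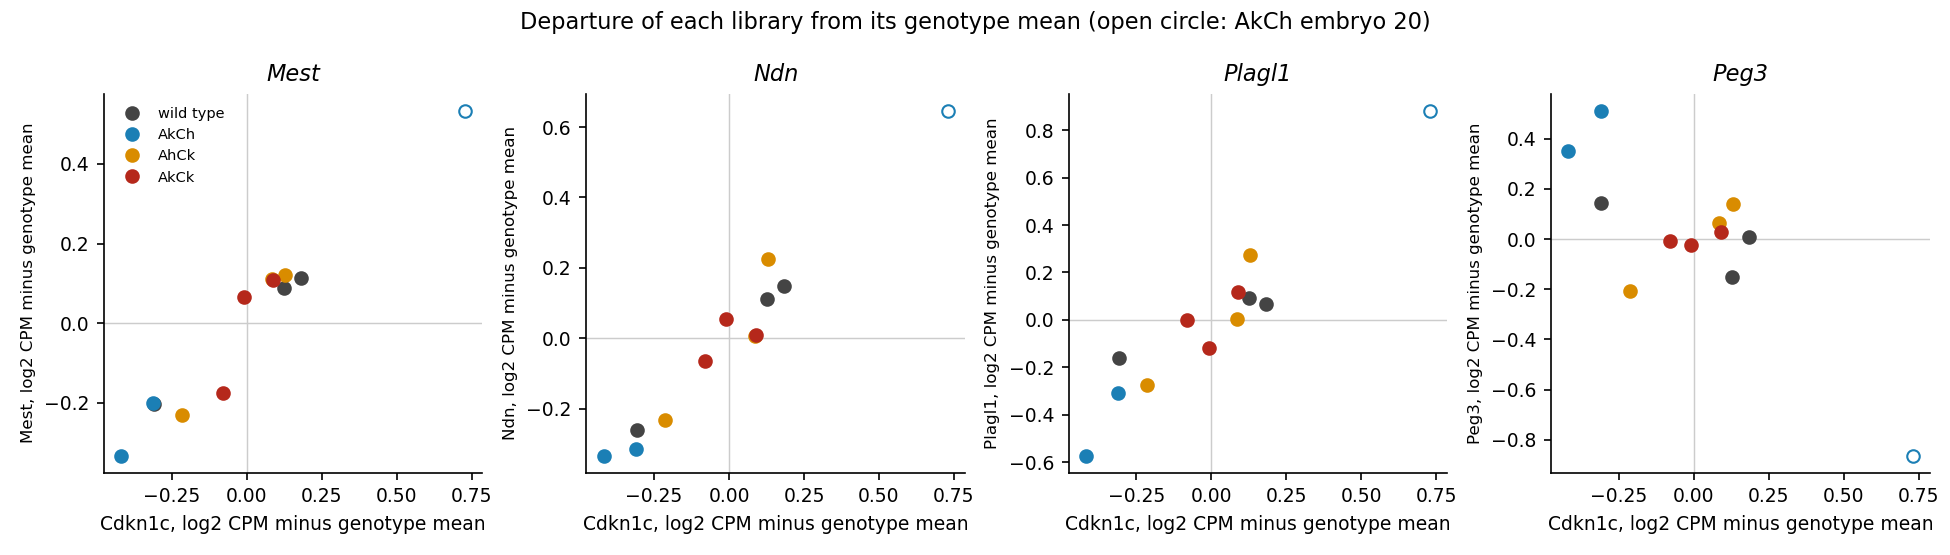
Departure of each library from its genotype mean in log2 CPM, Cdkn1c on the horizontal axis and Mest, Ndn, Plagl1 or Peg3 on the vertical axis. Mest, Ndn and Plagl1 rise with Cdkn1c also among the 11 libraries without AkCh embryo 20 (open circle), where r is 0.926, 0.925 and 0.798, while for Peg3 it is 0.102.

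For the 45 pairs as a whole, the pattern changed with AkCh embryo 20. With it, 23 pairs were positive and 22 negative, the median r was 0.103 against -0.00120 over all pairs of 16260 genes, and 31.1% of the pairs had an absolute r of 0.8 or more against 14.6% of all gene pairs. Without it, 37 pairs were positive and 8 negative, the median r was 0.578 against -0.00260, and 15.6% of the pairs reached that size against 4.79%. Within run1008, 9 libraries gave 21 positive and 24 negative pairs, a median of -0.317 and 62.2% against 21.3%. The 8 without embryo 20 gave 31 positive and 14 negative, a median of 0.369 and 11.1% against 9.155%, a share near that of all pairs. Peg3 is an example: its r with Cdkn1c was -0.818 over 12 libraries (permutation p 0.194, adjusted 0.350; rho -0.545, p 0.206) and 0.102 without embryo 20 (p 0.831), but -0.935 over the 9 libraries of run1008 (p 0.106) and -0.513 over the 8 without embryo 20 (p 0.653), so its sign without embryo 20 depends on which libraries are taken. Neighbouring genes did not stand out. Igf2 and H19 had r 0.840 (permutation p 0.0231, adjusted 0.0868; rho 0.776, p 0.0517) and 0.831 over the 9 libraries without AkCh (the 2 farthest being AkCh embryos 20 and 33), but 0.496 among the 8 libraries of run1008 without embryo 20. Peg3 and Zim1 had r 0.713 (permutation p 0.0910, adjusted 0.178; rho 0.559, p 0.114), which rests on AkCh embryo 20: r was 0.175 without it and 0.196 over the 9 libraries without AkCh (the 2 farthest being AkCh embryos 20 and 31). Within run1008 it was 0.808 over 9 libraries and 0.490 over the 8 without embryo 20.

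**Figure D5:**
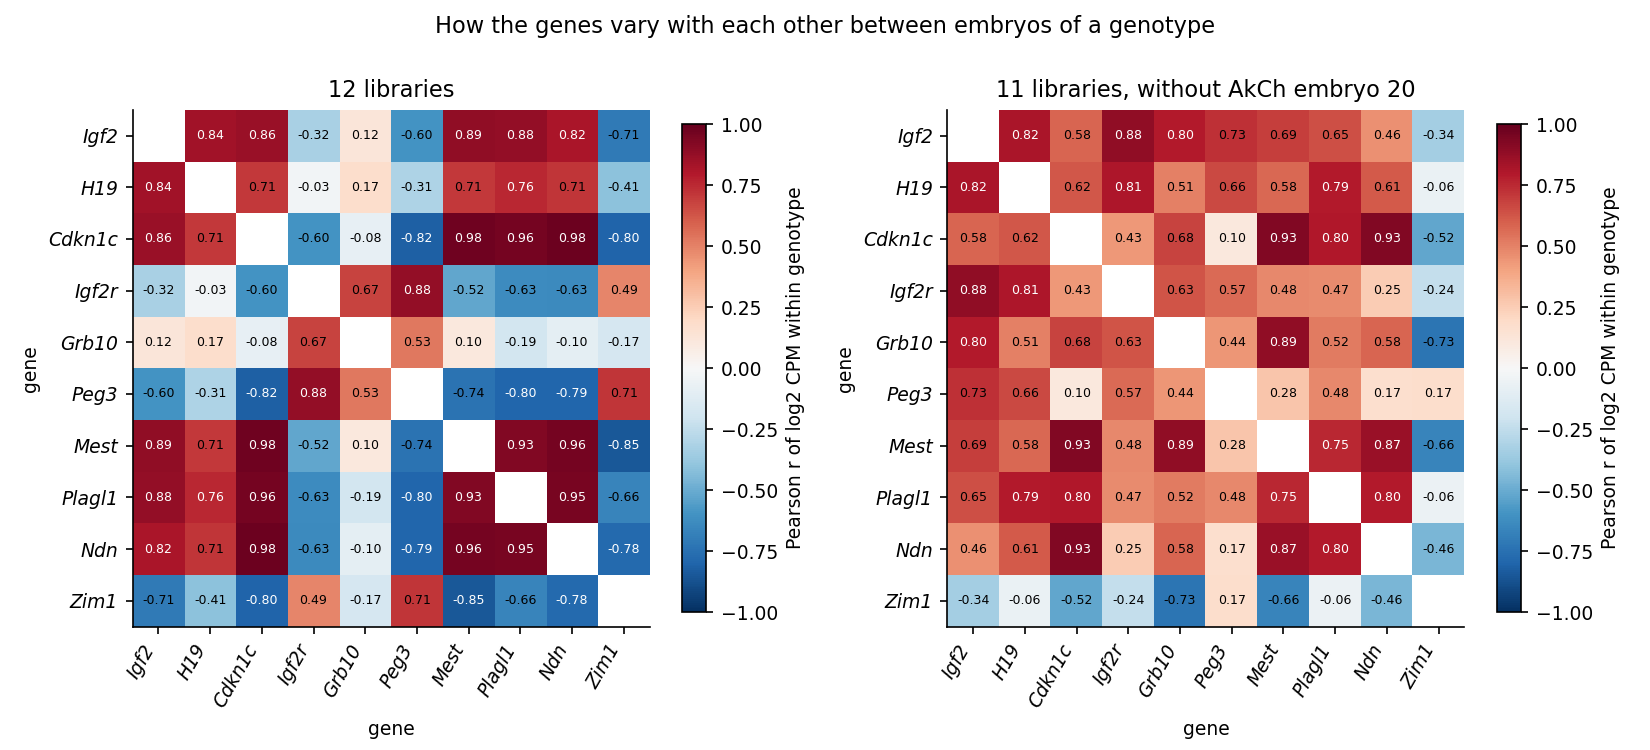
Pearson r of log2 CPM after subtracting genotype means for every pair of the 10 genes, over 12 libraries (left) and over 11 libraries without AkCh embryo 20 (right). Negative values on the left between Peg3 or Igf2r and genes other than Zim1 turn positive on the right, where 37 of 45 pairs are positive and all 8 negative pairs include Zim1.

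The genes whose levels over the 12 libraries were most like each of the 10 were taken from the 3 with the highest Pearson r of log2 CPM among 13422 candidates, as a description with no test. For Igf2 they were Rtl1 (r 0.954, and 0.974 over the 9 libraries of run1008), Sfrp4 (0.949) and Col1a1 (0.944). H19 was most like Prdm6 (0.902), Sfrp4 (0.883) and Rian (0.880), and Cdkn1c most like Serpinf1 (0.976), Stmn2 (0.975) and Lgals1 (0.969). Peg3 and Igf2r shared Kirrel, at 0.978 and 0.931, followed by Cul7 for Peg3 and preceded by Neo1 (0.940) for Igf2r, with Slc39a7 after Kirrel. Mest was most like Nnat (0.973), the second Copg2 entry, which overlaps it, and Pgls, and Plagl1 most like Thap11 (0.976), Carhsp1 and Fabp7. Ndn was most like Gnai2 (0.983), Emp3 and Cmtm3, Grb10 most like Rad54l (0.939), Nup155 and Nup188, and Zim1 most like Rin2 (0.943), Bmp6 and Pappa2. Without AkCh embryo 20 the values for Igf2r went down to 0.819 with Kirrel and 0.849 with Neo1; Igf2 had 0.952 with Rtl1, H19 0.902 with Prdm6, Cdkn1c 0.964 with Serpinf1, Peg3 0.935 with Kirrel, Mest 0.938 with Nnat, Plagl1 0.947 with Thap11, Ndn 0.966 with Gnai2, Grb10 0.963 with Rad54l and Zim1 0.924 with Rin2.

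Other genes of the IGF pathway moved both ways in AkCk. Of 20 tested, 4 were higher than in wild type and 1 lower, beside 6.31% and 7.40% of all genes, with a median log2 fold change of 0.03. Igf1, the other IGF ligand, went from 33.4, 28.2 and 32.2 CPM in wild type to 93.7, 124 and 70.02 CPM in AkCk, a rise of 1.62 (SE 0.194, edgeR adjusted p 0.00425) that held in all 6 fits that leave out 1 library. The IGF-binding proteins Igfbp4 (0.43, edgeR adjusted p 0.0102) and Igfbp6 (1.02, 0.0202) rose, each in 4 of the 6, as did the protease Pappa2 (1.30, 0.0278), in 2 of the 6. Igfbp5, the most abundant gene of the list by CPM, fell (log2 fold change -0.61, edgeR adjusted p 0.0252), in 2 of the 6. None of the 20 was past the threshold in AkCh or AhCk against wild type. The receptor Igf1r stood at 173, 151 and 173 CPM in wild type and at 154, 157 and 149.7 CPM in AkCk.

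Among 37 tested neighbours of the 10 genes in their imprinted clusters, 5 were higher in AkCk (Osbpl5, Trpm5, Slc22a3, Ddc and Klf14) and 2 lower (Kcnq1ot1 and Ltv1), beside 6.31% and 7.40% of all genes, with a median of 0.08; none was past the threshold in all 6 fits that leave out 1 library. Kcnq1ot1, the non-coding RNA that silences the paternal copy of the Cdkn1c cluster, went from 6.74, 6.83 and 7.60 CPM in wild type to 4.15, 3.85 and 3.65 CPM in AkCk. It fell (log2 fold change -0.86, edgeR adjusted p 0.0106), in 4 of the 6. Cd81 was the most abundant neighbour and did not pass. Of 21 other imprinted genes tested, 2 were higher (Sgce and Trappc9) and 2 lower (Peg10 and Asb4), beside those same shares of all genes, and the most abundant, Gnas, did not pass; each of these calls was lost in at least 3 of the 6. In the Dlk1 region 3 of 7 tested genes were higher and 1 lower, beside those same shares of all genes. Dlk1 (3.25, edgeR adjusted p 0.000290) and Rtl1 (3.24, 0.00469) rose in all 6, Rian rose by 0.62 (0.0253) in 2 and Meg3 fell (-0.76, 0.0383) in 2. In AhCk against wild type 2 of the 7 were higher and 0 lower, beside 0.836% and 1.53% of all genes. These were Dlk1 (1.43, edgeR adjusted p 0.0216) and Meg3 (1.35, 0.00933), calls that held in 3 and 5 of 6. AkCk was not tested against AhCk, and the AhCk genotype cannot be told apart from its run.

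Of 9 tested genes with parts in setting or keeping imprints, 4 were lower in AkCk, 0 were higher and 5 did not pass, beside 7.40% lower and 6.31% higher among all genes. Zfp57 stood at 16.7, 21.1 and 23.7 CPM in wild type and at 10.2, 8.89 and 10.8 CPM in AkCk, without overlap. Zfp57 (log2 fold change -1.04, edgeR adjusted p 0.00741) and Zfp445 (-0.42, 0.00994) fell, both in all 6 fits that leave out 1 library. Dnmt1 fell (-0.54, edgeR adjusted p 0.0289) in 3 of the 6 and Ctcf (-0.30, 0.0412) in 1; Trim28, the most abundant, did not pass. Of 11 tested cell-cycle genes 3 were lower, 0 higher and 8 did not pass, beside those same shares of all genes. Mki67 fell (log2 fold change -1.05, edgeR adjusted p 0.00173) in all 6, the related kinase inhibitor Cdkn1b (-0.49, 0.00996) in 5 and Cdk2 (-0.42, 0.0335) in 1. Ccnd1 was the most abundant of the 11. Cdkn1c and Cdkn1b thus differed from wild type in opposite directions. No gene of these lists was past the threshold in AkCh or AhCk against wild type.

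Markers of cell types differed between the same groups. Beside the counts below, 6.31% of all genes were higher and 7.40% lower in AkCk than in wild type. In AhCk these shares were 0.836% and 1.53%. Of 12 renal stroma markers, 9 were higher in AkCk and 0 lower (Foxd1, Pdgfra, Col1a1, Col1a2, Col3a1, Dcn, Lum, Postn and Tbx18), all 9 in every fit that leaves out 1 library. Their summed level was 4519, 4624 and 4382 CPM in wild type, 11699, 14213 and 12847 CPM in AkCk, 5459.5, 6845 and 7490.0 CPM in AhCk, and 6241, 6179 and 4766 CPM in AkCh, with Col3a1 the most abundant. In AhCk 3 of the 12 were higher (Col3a1, Lum and Postn), each in 2 of the 6 fits that leave out 1 library. Of 8 cap mesenchyme markers, 5 were lower in AkCk (Cited1, Meox1, Crym, Tmem100 and Gdnf) and 0 higher, with sums of 234, 305 and 343 CPM in wild type, 533, 248 and 223 CPM in AkCh, 199, 255 and 252 CPM in AhCk and 107, 76.9 and 191 CPM in AkCk; Six2 was the most abundant. Of these 5 calls Gdnf held in 6 of the 6 fits that leave out 1 library, Tmem100 in 5, and Cited1, Meox1 and Crym in 2 each. Of 8 ureteric bud and collecting duct markers 4 were lower in AkCk (Ret, Wnt11, Gata3 and Wnt9b) and 0 higher, with sums of 934, 945 and 1049 CPM in wild type, 1006.5, 891 and 827 CPM in AkCh, 888, 812 and 732 CPM in AhCk and 759, 941 and 904 CPM in AkCk, Krt8 being the most abundant. Among the calls Ret held in 6 of the 6 fits, Wnt11 and Gata3 in 5 and Wnt9b in 2. Ret was lower in AhCk too, in 1 of the 6. None of these lists had a marker at 0 in all libraries.

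Endothelial markers (0 of 6 past the threshold, sums of 594 to 872 CPM over the 12 libraries, Cdh5 the most abundant) and proximal tubule markers (0 of 8) did not pass in any comparison. The proximal tubule sum varied within genotypes: it was 3377, 1657 and 1292 CPM in wild type, 509 CPM in AkCh embryo 20 and 2909 and 3907 CPM in AkCh embryos 31 and 33, 3635, 2231 and 1738 CPM in AhCk, and 3269, 3882 and 2582 CPM in AkCk, with Lrp2 the most abundant. Liver markers summed to 52.0 to 151.5 CPM over the 12 libraries, with 3 of 8 higher in AkCk (Alb in 4, Ttr in 5 and Ahsg in 3 of the 6 fits that leave out 1 library) and Afp the most abundant. Skeletal muscle markers summed to 4.31 to 19.4 CPM, with 3 of 8 higher (Myh3 in 4, Actc1, the most abundant, in 6 and Myog in 3 of those fits). Of the adrenal medulla markers 1 of 3 tested was higher (Chgb, in 3 of those fits, with sums of 1.85 to 8.41 CPM and Pnmt the most abundant). Adrenal cortex (0 of 4 tested, Star the most abundant), gonad (0 of 3, Sox9) and erythroid markers (0 of 5, Hbb-bs, sums of 522 to 5840.5 CPM) did not pass in AkCk against wild type. In AkCk against AkCh no marker of these lists passed in edgeR with embryo 20, and without it 7 renal stroma, 3 erythroid and 1 skeletal muscle markers were higher and 0 lower. The part of these cell types, of sex and of AkCh embryo 20's departure in the levels of the 10 genes was not tested.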

How the data were processed

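The deposited raw table holds an expected count per gene and library, with fractions left by the authors' assignment of reads, and its values were rounded to whole numbers before testing. The second deposited table holds log2 values that the authors normalized and set to a median of 0 per gene, and it was used only in alternatives. Reads were 75 bases, paired and aligned to mm10 by the authors, who removed reads with several matches. The 10 genes were found by symbol. The members and lists were chosen with earlier results of these data known. From each list it reports, the text names the genes past the threshold and the most abundant gene, and beside each of the 10 genes up to 3 of those most like it. Tests were edgeR 4.0.16 quasi-likelihood F tests (TMM factors, filterByExpr with a minimum count of 10 and a minimum total of 15) across all genes in the 6 libraries compared, with Benjamini-Hochberg adjustment at 0.05. Alternatives used DESeq2 1.42.0 and limma 3.58.1 in R 4.3.3. Pair correlations used log2 CPM with a prior count of 2 and exact two-sided permutation tests in numpy 2.4.6. Positions and promoters came from RefSeq GRCm38.p6, joined by Entrez number, and exon lengths and strands from GENCODE M21, joined by symbol. The edgeR test and the pair test were first run on simulated data with a known difference.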

Additional observations from a re-analysis of the deposited data

How the results depend on the processing

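Replicates are 3 embryos per genotype, and AhCk cannot be told apart from its sequencing run. No paired analysis was possible because the labels do not give the litter of each embryo. Fits without AkCh embryo 20 (11 libraries, and 8 libraries of run1008) were chosen after seeing the data, the latter after the 9-library fit had given 0 of the 10 genes in AkCk against wild type. In that comparison 2171 genes became 3280 with DESeq2, 1190 with all 12 libraries, 690 with 9 libraries, 991 with Xist as covariate and 1196 with limma. The 6 members became 5 with library size alone as scaling, 4 with limma, 2 with all 12 libraries, 0 with 9, 5 with 11 and 1 with Xist. Library size alone as scaling changed the split to 742 higher and 1649 lower, from 999 and 1172. AkCh against wild type, 0 genes, gave 18 with DESeq2, 2 with 12 libraries, 1 with limma, 4 with 11 and 4 with 8 libraries. AhCk against wild type, 376 genes, gave 1265 with DESeq2, 149 with 12 libraries, 130 with Xist, 104 with limma and 976 with 11 libraries, and its 2 members became 0 with 12 libraries, Xist or limma and 3 with DESeq2. AkCk against AkCh, 0 genes, gave 487 with DESeq2, 1 without the count filter, 540 with 12 libraries, 181 with 9, 641 with Xist, 1203 with 11 and 970 with 8, and its 0 members became 3 with 11 and 3 with 8 libraries. The 4 pairs became 0 with 9 or 8 libraries, with Spearman rho without embryo 20, or without the 2 farthest libraries (9 or 10 left, as a genotype with 1 library drops out), and 11 without centring. The smallest possible permutation p was 0.00463 with the 9 libraries of run1008 and 0.0139 with the 8. Adjusted over 45 pairs, a single pair cannot pass at either, so these 2 counts do not test whether the pairs hold. A single pair cannot pass with 11 libraries either (smallest p 0.00231), nor with the fewer left once the 2 farthest are out. Leaving out 1 library in turn gave 535 to 3386 genes and 2 to 6 members in AkCk against wild type, 0 to 8 genes in AkCh, 60 to 549 genes and 0 to 2 members in AhCk, 0 to 687 genes and 0 to 4 members in AkCk against AkCh, and 0 to 7 pairs. Some log2 fold changes that were not past the threshold changed sign. In AkCh against wild type Peg3 became -0.30 with Xist and -0.0427 with limma. There, 11 libraries gave Cdkn1c -0.15, Igf2r 0.22, Grb10 0.0541, Mest -0.12 and Ndn -0.18, and 8 libraries -0.16, 0.21, 0.0516, -0.12 and -0.18. In AhCk with Xist, Cdkn1c became 0.0417, Grb10 -2.82e-06 and Mest 0.0524. In AkCk against AkCh Ndn became 0.0154 with library size, 0.000103 with Xist, 0.0629 with limma, 0.37 with 11 and 0.37 with 8 libraries, and Mest 0.25 with 11 and 0.25 with 8. Leaving out 1 library spanned, in AkCh against wild type, Igf2r -0.18 to 0.21, Grb10 -0.0658 to 0.0478, Peg3 -0.18 to 0.38, Cdkn1c -0.16 to 0.51, Mest -0.12 to 0.36 and Ndn -0.18 to 0.39. The spans were -0.15 to 0.0470 for Mest and -0.0293 to 0.13 for Grb10 in AhCk, and -0.22 to 0.27 for Mest, -0.19 to 0.40 for Ndn and -0.23 to 0.62 for Plagl1 in AkCk against AkCh. Of the other checks on single genes 557 were the same, 100 weaker, 7 stronger and 22 reversed, and of those with 1 library left out 295, 107, 3 and 21. The cause was not tested.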
